A study of Mus musculus with 19 samples.

Results

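The 9 genes described here encode the output and repressor factors of the circadian clock: the PAR bZIP activators Dbp, Tef and Hlf, their competitor Nfil3, the nuclear receptors Nr1d1 and Nr1d2, the basic helix-loop-helix repressors Bhlhe40 and Bhlhe41, and Ciart. They were chosen by symbol from 49592 counted genes, with the responses of these mice to amphetamine already known, so the amphetamine comparisons below describe the genes and test nothing about them. All 9 passed the filter on low counts. Knockout against control was not the comparison of the choice and was tested, but on the same libraries. Its groups are those of the known amphetamine comparisons, so these tests are not independent of the choice. The genotype difference in the drug response is the difference of the known amphetamine comparisons, so it too is given as a description.

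In nearly every mammalian cell the activators CLOCK (or NPAS2) and BMAL1, the product of Arntl, bind E-box sequences and switch on Per, Cry, Nr1d, Dbp, Bhlhe and Ciart genes, whose products then feed back. PER and CRY proteins block CLOCK and BMAL1, and the REV-ERB receptors from Nr1d1 and Nr1d2 repress Arntl and Nfil3 through sites shared with ROR activators. DBP, TEF and HLF activate output genes through D-box sequences, which NFIL3 occupies as a repressor. In striatum, dopamine is known to influence the rhythm of some of these genes.

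The 19 mice were males of 4 months, and RNA of the striatum of each gave 1 library. Every mouse, controls included, carried Cre recombinase driven by the dopamine D2 receptor gene (D2RCre) and a Cre-dependent Cas9 with EGFP (floxCas9-EGFP). Knockout mice (PFC_D2R-KO) received AAV5 carrying guide RNAs against the D2 receptor and mCherry in the medial prefrontal cortex, and control mice received AAV5 syn-mCherry there. The knockout is thus made in the cortex and not in the sequenced tissue, so the striatal level of the receptor gene does not check it. Saline was given for 5 days with 30 min of activity recording, and on day 9 the mice received amphetamine at 3 mg/kg or saline. The groups were 4 amphetamine knockout, 5 saline knockout, 5 amphetamine control and 5 saline control mice. Tissue was taken 90 min after amphetamine, a time not stated separately for saline, and the time of day is not given in the labels. Clock phase and treatment cannot be told apart if that time differed between groups.

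Library totals ran from 57003408 to 85536346 counts, and no pair within a group agreed within sampling noise (smallest chi-square per degree of freedom 11.2). The labels do not say whether dissections were balanced in time. Defining markers of striatal projection neurons were detected in every library. Markers of neighbouring tissue varied: summed markers of the choroid plexus reached 672 CPM (the count scaled to a common library total, with TMM factors) in amphetamine knockout mouse 2, against 24.6 to 67.04 CPM over the other 18 mice. In such bulk tissue, fewer cells of a type and less RNA per cell cannot be told apart. Saline control mouse 5 stands apart in several of the 9 genes, and the amphetamine differences of control mice are given with and without it. An earlier look at these data named it among 5 libraries that stand apart on the principal components, with amphetamine knockout mice 2 and 3, saline knockout mouse 3 and amphetamine control mouse 3. Without those 5, 2 amphetamine knockout mice and 4 mice of each other group remain.

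Promoter sequences (250 bases before the start site, from RefSeq, build GRCm38.p6) are shown for Ciart, Nfil3 and Dbp, because the values below turn on them. Ciart had the largest amphetamine difference of the 9 in knockout mice and Dbp in control mice (there Ciart, without saline control mouse 5), and Nfil3 was the gene that lay lower after the drug. Capitals mark the E-box CACGTG in Ciart and, in Nfil3, the reverse complement of the REV-ERB site TAGGTCA. The windows lie at chr3:95882229-95882478, chr13:52981040-52981289 (both minus strand) and chr7:45704997-45705246 (plus strand), and each is written 5′ to 3′ along its gene.
Ciart: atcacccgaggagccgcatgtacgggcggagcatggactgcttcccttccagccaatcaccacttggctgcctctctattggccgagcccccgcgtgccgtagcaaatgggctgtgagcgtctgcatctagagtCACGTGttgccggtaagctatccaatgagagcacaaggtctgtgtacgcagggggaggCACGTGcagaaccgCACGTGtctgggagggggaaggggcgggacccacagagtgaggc
Nfil3: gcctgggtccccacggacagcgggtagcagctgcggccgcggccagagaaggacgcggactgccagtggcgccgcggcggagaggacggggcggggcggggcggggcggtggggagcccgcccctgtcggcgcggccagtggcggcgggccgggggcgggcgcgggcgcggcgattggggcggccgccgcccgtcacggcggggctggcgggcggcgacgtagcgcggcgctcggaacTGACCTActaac
Dbp: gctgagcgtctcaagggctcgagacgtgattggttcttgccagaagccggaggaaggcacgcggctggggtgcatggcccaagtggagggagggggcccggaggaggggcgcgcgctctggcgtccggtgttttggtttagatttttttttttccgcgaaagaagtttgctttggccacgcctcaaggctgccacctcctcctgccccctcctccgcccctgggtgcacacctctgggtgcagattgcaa

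Ciart held the E-box 3 times, at positions -116, -58 and -44 from the start site. Both strands of the whole window, which runs on to 50 bases after the start site, were searched for the E-box CACGTG and its variant CACGTT, the D-box TTATGTAA and its palindrome TTACGTAA, the REV-ERB sites TAGGTCA and TGGGTCA, and the cyclic AMP element TGACGTCA. CACGTG occurred in 3 of the 8 genes with a window (Tef, Bhlhe41 and Ciart) and in 7.15% of 32851 windows of 300 bases in the same table. These 8 genes had 9 windows, as Tef had a second, which also held CACGTG. The shares count windows and not genes. TAGGTCA occurred in Nfil3, at position -12, and in 2.61% of all windows. CACGTT occurred in Nr1d1 (4.68% of all windows) and TGACGTCA in Hlf (1.79%). TTATGTAA (0.938%), TTACGTAA (0.119%) and TGGGTCA (3.98%) occurred in no window of the 8 genes. Dbp and Nr1d2 held none of the motifs. These matches are letters only, and no binding was measured. Bhlhe40 is named only.

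By length-corrected level the genes covered a wide range. Tef was highest in the authors' deposited FPKM, at 84.3 ± 10.8 (SD over 19 mice), followed by Dbp at 58.9 ± 15.0. Nr1d2 (31.0 ± 3.47), Nr1d1 (27.0 ± 3.56), Hlf (25.8 ± 3.87) and Bhlhe40 (20.7 ± 3.27 FPKM) formed the middle of the order. Below them lay Bhlhe41 at 9.74 ± 1.19, Ciart at 7.96 ± 3.06 and Nfil3 at 3.86 ± 0.693 FPKM. Tef exceeded Dbp, and Dbp exceeded Nr1d2, within each of 19 mice. The least certain step was Nr1d1 over Hlf, which held in 13 of 19 mice. Between neighbours in this order the ranges over mice overlapped in each case but Bhlhe40 over Bhlhe41. Ciart varied most, with a highest level 3.70 times its lowest, and Nr1d2 least, at 1.45 times.

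**Figure D1:**
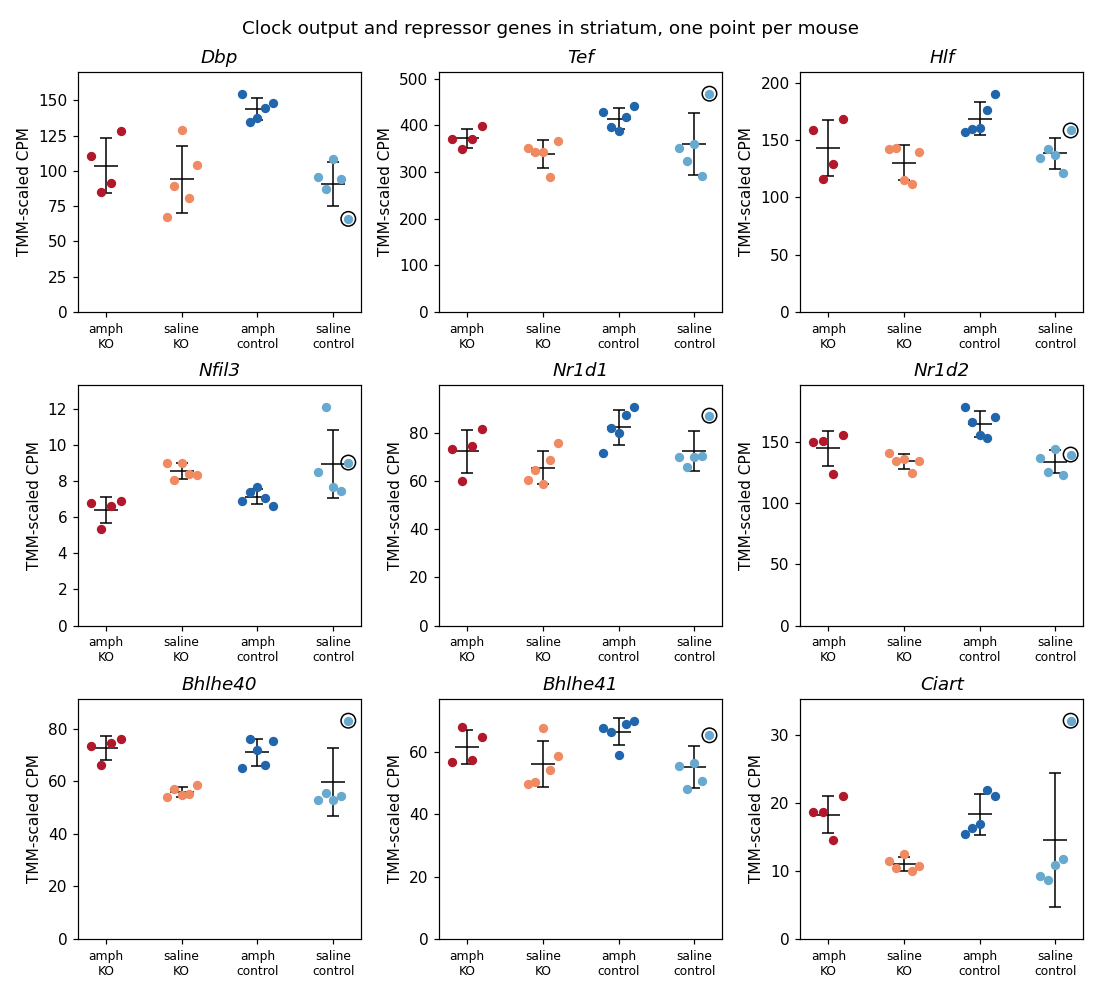
Level of each of the 9 genes in TMM-scaled CPM (vertical axis from 0) in amphetamine knockout (4), saline knockout, amphetamine control and saline control mice (5 each). Points are mice, bars are mean ± SD, and the ringed point is saline control mouse 5, which at 32.1 CPM of Ciart lies above every other mouse.

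Dbp, a D-box activator whose transcript is among the most strongly cycling outputs of the clock, differed most after amphetamine in control mice when all 5 saline control mice were kept. It stood at 155, 135, 137, 144 and 148 CPM in amphetamine control mice, against 95.8, 87.4, 109, 94.5 and 66.0 CPM in saline control mice. Every amphetamine control mouse lay above every saline control mouse, with a log2 fold change of 0.67 ± 0.151 (SE). Without saline control mouse 5, the lowest, it was 0.57 ± 0.147, below the 0.84 ± 0.128 of Ciart. In knockout mice the levels were 111, 84.8, 91.7 and 128 CPM in amphetamine knockout mice, against 67.1, 89.4, 129, 80.5 and 104 CPM in saline knockout mice. These ranges overlapped, and the log2 fold change was 0.14 ± 0.159. The tightest Dbp group was amphetamine control, at 144 ± 8.02 CPM (SD, n = 5), against 104 ± 19.4 CPM in amphetamine knockout mice (n = 4). Dbp (ENSMUSG00000059824.13, chr7:45354512-45359627, build GRCm39 as for every gene position below) overlaps the sphingosine kinase gene Sphk2 over 737 bases, and Sphk2 had log2 fold changes of -0.19 in knockout and -0.09 in control mice.

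Tef, the D-box activator with the highest level, and Hlf, the third PAR bZIP factor, lay less far apart between treatments. Tef (ENSMUSG00000022389.16, chr15:81686622-81711064) stood at 428, 397, 388, 418 and 441 CPM in amphetamine control mice, against 352, 324, 359.7, 292 and 468 CPM in saline control mice. The highest Tef of all 19 mice was that of saline control mouse 5, while the other 4 saline control mice lay below all 5 amphetamine control mice. The log2 fold change was 0.21 ± 0.0982 with that mouse and 0.31 ± 0.0793 without it. In knockout mice Tef was 369.7, 350.1, 372 and 399 CPM in amphetamine knockout mice, against 351, 344, 343, 289 and 367 CPM in saline knockout mice. The groups overlapped, with a log2 fold change of 0.14 ± 0.104.

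Hlf (ENSMUSG00000003949.17, chr11:90227362-90281721) was 157, 159.8, 160.3, 176 and 191 CPM in amphetamine control mice, against 135, 142, 137, 121 and 159 CPM in saline control mice. The lowest amphetamine control value lay just under the value of saline control mouse 5, and the log2 fold change was 0.28 ± 0.104 (0.33 ± 0.107 without that mouse). In knockout mice Hlf was 159, 116, 129 and 169 CPM in amphetamine knockout mice, against 142, 143, 115, 112 and 140.0 CPM in saline knockout mice. These groups overlapped through most of their range, at a log2 fold change of 0.14 ± 0.1102.

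Nfil3, the repressor that competes for the D-box, was the 1 gene of the 9 that lay lower after amphetamine. It (ENSMUSG00000056749.8, chr13:53121245-53135109) stood at 6.76, 5.34, 6.61 and 6.91 CPM in amphetamine knockout mice, against 9.00, 8.03, 9.02, 8.37 and 8.32 CPM in saline knockout mice. Every amphetamine knockout mouse lay below every saline knockout mouse, with a log2 fold change of -0.42 ± 0.123. In control mice Nfil3 was 6.89, 7.39, 7.69, 7.05 and 6.60 CPM in amphetamine control mice, against 8.49, 12.1, 7.68, 7.46 and 9.02 CPM in saline control mice. Here the groups overlapped, saline control mouse 2 was highest, and the log2 fold change was -0.33 ± 0.116 (-0.19 without saline control mouse 2 and -0.33 ± 0.120 without mouse 5).

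Of the REV-ERB receptors, Nr1d2 (REV-ERB beta, ENSMUSG00000021775.12, chr14:4230569-4265642) lay higher in every amphetamine control mouse than in any saline control mouse. It was 178, 166, 155, 153 and 171 CPM in amphetamine control mice, against 137, 126, 144, 123 and 139.7 CPM in saline control mice, a log2 fold change of 0.30 ± 0.0719 (0.31 ± 0.0754 without saline control mouse 5). In knockout mice it was 149.7, 150.4, 124 and 155 CPM in amphetamine knockout mice, against 141, 135, 136, 125 and 134 CPM in saline knockout mice. Amphetamine knockout mouse 3 was the lowest of these 9 mice, and the log2 fold change was 0.11 ± 0.0761.

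Nr1d1 (REV-ERB alpha, ENSMUSG00000020889.12, chr11:98658758-98666159) overlapped between treatments in both genotypes. It was 72.0, 82.2, 79.9, 87.6 and 90.9 CPM in amphetamine control mice, against 70.2, 65.8, 70.1, 70.4 and 87.3 CPM in saline control mice, at a log2 fold change of 0.18 ± 0.0946 (0.25 ± 0.0901 without saline control mouse 5). In knockout mice it was 73.5, 60.3, 74.5 and 81.7 CPM in amphetamine knockout mice, against 60.4, 64.9, 58.7, 69.0 and 75.9 CPM in saline knockout mice, at 0.14 ± 0.1001. Saline control mouse 5 was among the 3 highest of all mice. Nr1d1 shares 1075 bases with Thra, a thyroid hormone receptor gene, and the labels do not state the strand setting of the counting. Thra itself had log2 fold changes of 0.14 in knockout and 0.02 in control mice.

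Bhlhe40 (DEC1, ENSMUSG00000030103.12, chr6:108637590-108643886), which represses E-box genes and is also induced by many stimuli, separated the treatments in knockout mice. It was 73.3, 66.2, 74.8 and 76.3 CPM in amphetamine knockout mice, against 54.2, 57.1, 54.8, 55.2 and 58.7 CPM in saline knockout mice. No value overlapped, the saline knockout mice were within a few CPM of each other, and the log2 fold change was 0.38 ± 0.106. In control mice it was 65.0, 76.2, 71.8, 66.3 and 75.5 CPM in amphetamine control mice, against 53.0, 55.4, 52.9, 54.3 and 83.1 CPM in saline control mice. Mouse 5 of the saline control group exceeded every other mouse, while the other 4 lay below all amphetamine control mice. The log2 fold change was 0.25 ± 0.101 with that mouse and 0.39 ± 0.0605 without it.

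Bhlhe41 (DEC2, ENSMUSG00000030256.12, chr6:145803969-145811284), its close relative, was 67.7, 66.2, 59.1, 69.0 and 70.0 CPM in amphetamine control mice, against 55.4, 48.1, 56.3, 50.7 and 65.3 CPM in saline control mice, at a log2 fold change of 0.27 ± 0.0925. Only saline control mouse 5 reached into the amphetamine control range, and without it the value was 0.33 ± 0.0892. In knockout mice Bhlhe41 was 56.8, 67.8, 57.2 and 64.7 CPM in amphetamine knockout mice, against 49.6, 50.3, 67.5, 54.3 and 58.7 CPM in saline knockout mice, at 0.14 ± 0.0978. Saline knockout mice 3 and 5 lay within the amphetamine range there. Bhlhe41 overlaps Gm43909 over 1876 bases, and Gm43909 had log2 fold changes of 0.06 in knockout and 0.11 in control mice.

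Ciart (ENSMUSG00000038550.11, chr3:95785815-95789563), a repressor of CLOCK and BMAL1 also known as CHRONO, was among the 2 lowest genes by level and had the largest difference in knockout mice. It was 18.8, 18.8, 14.5 and 21.1 CPM in amphetamine knockout mice, against 11.5, 10.5, 12.5, 9.99 and 10.7 CPM in saline knockout mice. The groups did not overlap, and the log2 fold change was 0.73 ± 0.282. In control mice it was 15.4, 16.3, 17.0, 22.0 and 21.0 CPM in amphetamine control mice, against 9.29, 8.74, 10.96, 11.8 and 32.1 CPM in saline control mice. Saline control mouse 5, at 32.1 CPM, was the highest of all mice, and the other 4 saline control mice lay below every amphetamine control mouse. The log2 fold change in control mice was 0.33 ± 0.267 with mouse 5 and 0.84 ± 0.128 without it. Ciart lies wholly inside the locus C920021L13Rik, whose counts had log2 fold changes of 0.36 in knockout and -0.25 in control mice.

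Counted together, 3 of the 9 genes did not overlap between amphetamine and saline knockout mice: Bhlhe40 and Ciart lay higher (2.22% of all 21513 genes tested did so) and Nfil3 lower (2.84%). In control mice Dbp and Nr1d2 lay higher without overlap (2.22%) and none lower (1.68%). Without saline control mouse 5, 8 of the 9 did so, all but Nfil3, against 4.21% of genes tested, and none lay lower (3.33%). In edgeR, 0 of the 9 passed an adjusted p of 0.05 over all genes in either genotype (0.00465% of genes did so in each). At an unadjusted p under 0.05, 2 lay higher and 1 lower in knockout mice (12.1% of genes in either direction), and 6 higher and 1 lower in control mice (11.8%). The median log2 fold change of the 9 was 0.14 in knockout and 0.27 in control mice, against -0.01 over all genes in each. Because the genes were chosen with these contrasts known, nothing further is read from the counts. Markers of striatal projection neurons stood beside them: 1 of 12 lay above 0 after amphetamine in knockout (median log2 fold change -0.31) and 12 of 12 in control mice (0.47). Cortical projection neuron markers lay above 0 in 10 of 10 (0.80) in knockout and 9 of 10 (0.69) in control mice. Ependymal markers lay above 0 in 0 of 8 in knockout (-0.19) and 0 of 8 in control mice (-0.68). For hypothalamic neurons 3 of 8 did so in knockout (-0.51) and 1 of 8 in control mice (-1.19). Choroid plexus markers did so in 5 of 6 in knockout (1.62) and 2 of 6 in control mice (-0.15). The part of tissue composition in the clock gene values was not tested.

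The authors' deposited table for control mice, which holds only those 10 libraries, lists 3 of the 9 at an adjusted p under 0.05, namely Dbp, Nr1d2 and Hlf, with 4.21% of its 18863 tested genes. The authors' deposited table for knockout mice lists Ciart, Bhlhe40 and Nfil3, with 0.665% of 19699 genes. Its log2 fold changes were 0.73 for Ciart, 0.38 for Bhlhe40 and -0.41 for Nfil3. In the authors' deposited table for knockout against control under saline, 0 of the 9 were listed (0.00439% of genes).

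**Figure D2:**
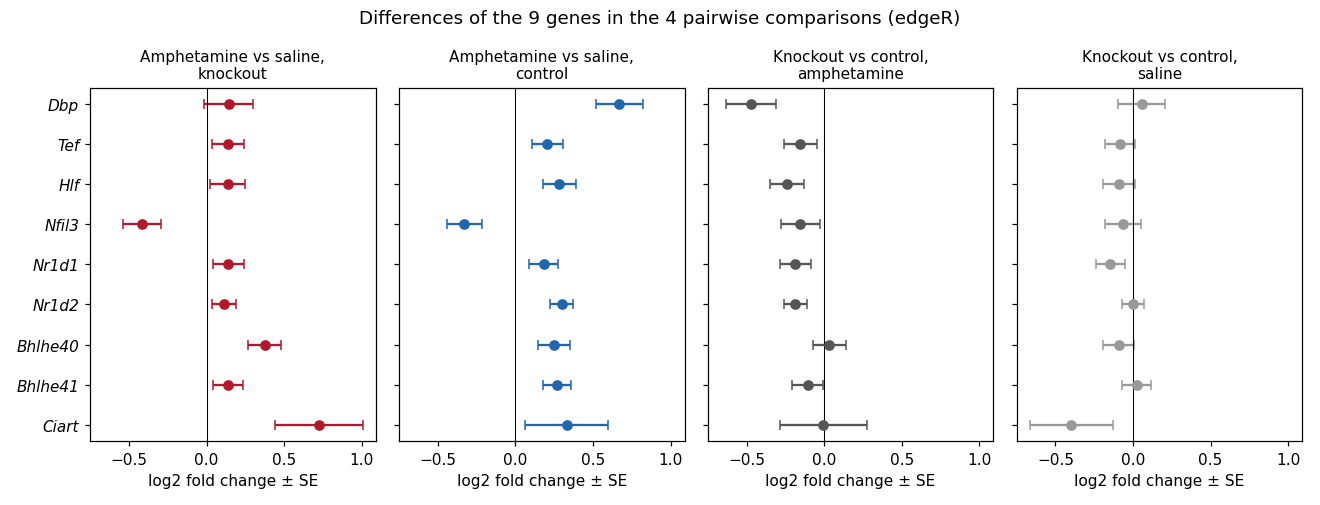
log2 fold change ± SE (horizontal axis) of each of the 9 genes from edgeR in 4 comparisons: amphetamine against saline in knockout and in control mice, and knockout against control under amphetamine and under saline. Ciart (0.73) and Bhlhe40 (0.38) lie farthest right in the first panel and Dbp (0.67) in the second, while Dbp (-0.47) lies farthest left in the third.

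Averaged over both genotypes, 8 of the 9 genes were higher after amphetamine and Nfil3 was lower, with a median of 0.20 against -0.01 over all genes. Ciart had the largest value, 0.53 ± 0.194, followed by Dbp at 0.41 ± 0.109, Nfil3 at -0.37 ± 0.0845 and Bhlhe40 at 0.31 ± 0.0732. The remaining 5 lay between 0.16 and 0.21. In edgeR, 0 of the 9 passed at an adjusted p of 0.05 (0.149% of genes did). All 9 had an unadjusted p under 0.05, as did 14.5% of genes. Without saline control mouse 5, Ciart was 0.78 ± 0.0891 and Bhlhe40 0.38 ± 0.0425, and both passed together with Nfil3. In that setting 269 of all genes passed, against 32 with every mouse. The mouse left out stood out in Ciart and Bhlhe40 themselves, so nothing is read from these passes.

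This 1 mouse thus set the width of its group in several genes. Among the other clock genes it had Per1 at 146 CPM, against 62.8 to 75.4 CPM in the other 4 saline control mice, and Cry1 at 53.6 CPM, against 20.8 to 25.8 CPM. In the same mouse, 16 genes known to be induced by glucocorticoids (a list that includes Per1) summed to 1913 CPM, against 611 to 763 CPM in the other saline control mice. Saline knockout mouse 1 was the next highest, at 1416 CPM, against 635 to 834 CPM in the other saline knockout mice. That mouse had 11.5 CPM of Ciart, between the other saline knockout mice, and the lowest Bhlhe40 (54.2 CPM) and Dbp (67.1 CPM) of its group. The lowest Dbp of all mice was that of saline control mouse 5, at 66.0 CPM. In control mice 0 of the 16 genes lay above 0 after amphetamine (median log2 fold change -0.40), and in knockout mice 4 of 16 did (-0.19). Both medians include these 2 high saline mice. The sums after amphetamine were 627.7 to 756.5 CPM in control and 627.4 to 889.5 CPM in knockout mice, near those of the other saline mice. A lowering by amphetamine is therefore not read from these counts. The part of these genes in the clock gene values was not tested.

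**Figure D3:**
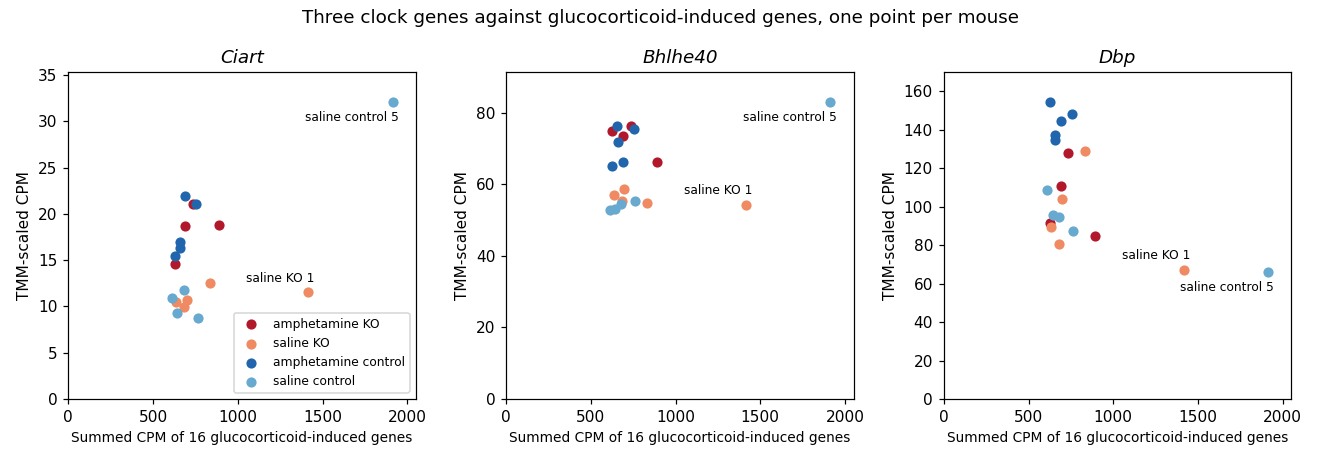
TMM-scaled CPM of Ciart, Bhlhe40 and Dbp (vertical axes) against the summed CPM of 16 glucocorticoid-induced genes (horizontal axes), 1 point per mouse. Saline control mouse 5 (1913 CPM) is highest in Ciart and Bhlhe40, whereas saline knockout mouse 1 (1416 CPM) lies with the other saline mice in both, and both mice are lowest in Dbp.

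Knockout against control asks whether loss of the D2 receptor in prefrontal cortex is accompanied by another level of these genes in striatum. After amphetamine, Dbp was the 1 gene of the 9 whose groups did not overlap: each of the 4 amphetamine knockout mice lay below each of the 5 amphetamine control mice (3.71% of genes tested did so). None lay higher without overlap (3.08%). The amphetamine control mice here are those of the known drug comparison, in which Dbp lay high. The level of Dbp was 104 ± 19.4 CPM in amphetamine knockout and 144 ± 8.02 CPM in amphetamine control mice (SD). The log2 fold change was -0.47 ± 0.160, and the adjusted p = 0.253 in edgeR does not pass. Hlf (-0.24 ± 0.111, adjusted p = 0.380) and Nr1d2 (-0.19 ± 0.0764, adjusted p = 0.314) also had unadjusted p under 0.05 (12.8% of genes) and did not pass. Bhlhe40 (0.03 ± 0.107) and Ciart (-0.01 ± 0.282) were close to 0, with 95% intervals of -0.18 to 0.24 and -0.56 to 0.55. By edgeR 0 of the 9 and 0 of all genes passed.

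Markers of striatal projection neurons moved with the same comparison. The 12 listed genes summed to 4019, 2561, 1549 and 4444 CPM in amphetamine knockout mice, against 5513, 4578, 4744, 5559 and 5909 CPM in amphetamine control mice. These ranges do not overlap, and 12 of 12 markers lay below 0 (median log2 fold change -0.81). The amphetamine knockout mice with the lowest marker sums, 3 and 2, also had the lowest Dbp of that group. Without the 5 libraries that stand apart, among them those 2 mice, the Dbp log2 fold change was -0.29. Markers of neighbouring tissue lay higher in the same comparison: 7 of 8 for hypothalamic neurons (median log2 fold change 1.53), 8 of 8 for ependymal cells (0.55) and 6 of 6 for the choroid plexus (1.42, with mouse 2 far above the rest). The summed ranges of these 3 lists overlapped between the groups. The part of tissue composition in the Dbp difference was not tested.

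Under saline, none of the 9 genes separated knockout from control mice (0.511% of genes lay higher and 0.4% lower without overlap), and 0 of 9 had an unadjusted p under 0.05 (7.94% of genes). The largest value was that of Ciart, -0.40 ± 0.268 (adjusted p = 0.663 in edgeR, 95% interval -0.92 to 0.13), which was 0.11 ± 0.126 without saline control mouse 5. Without that mouse, too, none of the 9 separated the genotypes (1.19% of genes lay higher and 1.07% lower). Dbp was 0.05 ± 0.150, with a 95% interval of -0.24 to 0.35, and -0.05 ± 0.145 without that mouse. Nr1d2 was 0.00 ± 0.0718, with an interval of -0.14 to 0.14. In edgeR 0 genes of any kind passed here at an adjusted p of 0.05. Averaged over treatments, all 9 genes were lower in knockout mice by value, with a median log2 fold change of -0.12, and 0 of 9 passed (0% of genes). Without saline control mouse 5, Bhlhe40 (0.04 ± 0.0425) and Ciart (0.05 ± 0.0886) lay above 0. An unadjusted p under 0.05 was reached by Hlf (-0.16 ± 0.0759, or -0.14 ± 0.0754 without mouse 5) and Nr1d1 (-0.17 ± 0.0690, or -0.13 ± 0.0635), with adjusted p = 0.419 and 0.384, against 11.6% of genes.

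The genotype difference in the amphetamine response was largest for Dbp, at -0.53 ± 0.219 on the log2 scale (response of knockout mice minus that of control mice). It was -0.42 ± 0.206 without saline control mouse 5 and -0.11 without the 5 libraries that stand apart, which leaves 2 amphetamine knockout mice. In edgeR 0 of the 9 passed and 1, Dbp, had an unadjusted p under 0.05, as did 9.25% of genes, and nothing is read from these counts. For Ciart the difference was 0.39 ± 0.388, with a 95% interval of -0.37 to 1.15, and -0.11 ± 0.177 without saline control mouse 5. For Bhlhe40 it was 0.13 ± 0.147 (-0.01 ± 0.0849 without that mouse). That Dbp and Nr1d2 separated the treatments in control mice, and Bhlhe40, Ciart and Nfil3 in knockout mice, is not shown to be a difference between genotypes.

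Within groups, the 9 genes varied together in part. Over 36 pairs, the Pearson correlation of deviations from the group mean (log2 CPM, 19 mice) had a median of 0.26 and ran from -0.36 to 0.78. In a family of 45 pairs that also holds each gene with Arntl, 1 pair passed the adjusted p of 0.05, by permutation within groups. This was Tef with Hlf, at r = 0.66 (permutation p = 0.00033, adjusted 0.0148) and Spearman rho = 0.69 (adjusted p = 0.0391 by permutation). Without the 2 mice farthest from the median in Tef, r was 0.62. Nr1d1 with Bhlhe40 had r = 0.71 (permutation p = 0.00278, adjusted 0.0625) and rho = 0.74 (permutation p = 0.00235, adjusted 0.0529), and r = 0.60 without 2 mice. Bhlhe40 with Ciart had the highest r, 0.78 (permutation p = 0.117, adjusted 0.276), but rho = 0.40 (permutation p = 0.154, adjusted 0.359) and r = 0.30 without 2 mice, so that relation rests on them. For Dbp, r with the other 8 genes ran from -0.36 to 0.24.

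**Figure D4:**
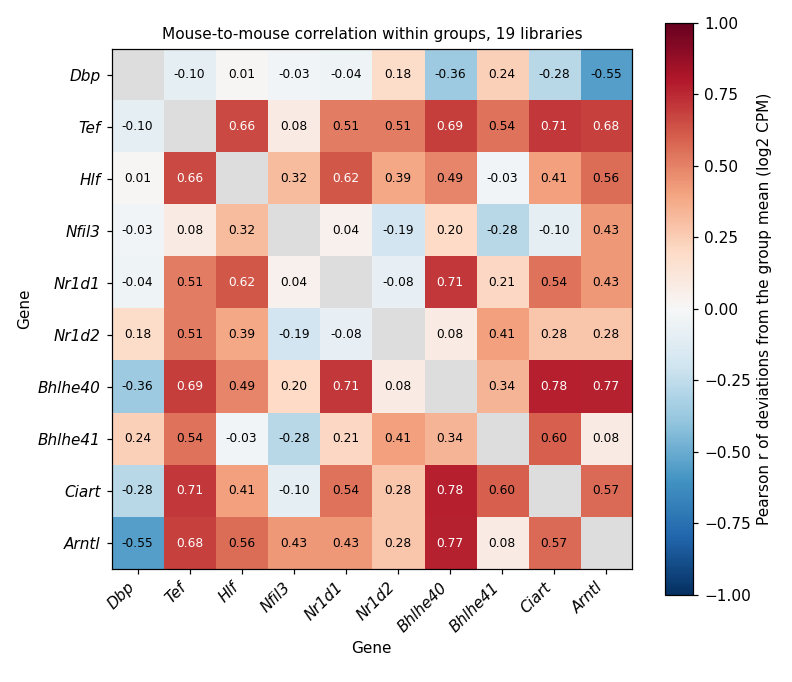
Pearson r between each pair of the 9 genes and Arntl (both axes), from deviations of log2 CPM from the group mean over 19 mice, with colour from -1 (blue) to 1 (red). Bhlhe40 with Ciart (0.78) is the highest pair, and the row of Dbp runs from -0.55 with Arntl to 0.24 with Bhlhe41.

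By the same measure over 19 mice, the genes most like Dbp among 15225 with a mean of at least 1 CPM were Ier5l (r = 0.92, rho = 0.91), Smarcd3 (0.91 and 0.88), Fastk (0.89 and 0.81), Srm (0.89 and 0.88) and Rxrb (0.89 and 0.85). Those most like Bhlhe40 were Gmeb1 (r = 0.92, rho = 0.79), Mark3 (0.91 and 0.79), Elovl4 (0.90 and 0.70), Zfp746 (0.89 and 0.72) and Mob3c (0.88 and 0.68). Each rho in both lists was lower than its r, with the larger gaps for Bhlhe40. The 9 genes were left out of these lists by rule. Ranked among all genes, the nearest of the 9 to Bhlhe40 was Ciart, at rank 94, and the nearest to Dbp was Bhlhe41, at rank 4836. All values share the same 19 libraries and their depth, so they are a description without a test.

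Of 17 core clock genes, 12 lay above 0 after amphetamine in knockout mice (median log2 fold change 0.11) and 10 in control mice (0.04). Averaged over genotypes 13 of 17 did (0.07), and 1 passed in edgeR, the period gene Per3, at 0.34 ± 0.0605 (adjusted p = 0.0269). Per3 stood at 47.5, 52.8, 42.0 and 50.4 CPM in amphetamine knockout mice, against 37.2, 38.3, 31.9, 34.6 and 37.1 CPM in saline knockout mice. Those groups did not overlap. In knockout mice 2 of the 17, Per3 and Cry2, lay higher without overlap (2.22% of genes tested did so). In control mice Per3 was 41.3, 47.2, 46.1, 49.9 and 53.9 CPM in amphetamine control mice, against 41.1, 37.4, 45.3, 36.2 and 41.6 CPM in saline control mice, with overlap. Per3 is also a listed target of the PAR bZIP factors.

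The activator gene Arntl, repressed by REV-ERB receptors, had a log2 fold change of -0.20 ± 0.120 after amphetamine in knockout and -0.31 ± 0.113 in control mice. Control mice ran from 26.6 to 30.7 CPM of Arntl after amphetamine and from 27.1 to 49.3 CPM after saline. The highest was saline control mouse 5, and the drug value without it is not given here. The partners of Arntl did not share its direction in every comparison: Clock had 0.10 in knockout and 0.04 in control mice, and Npas2 -0.05 and 0.05. Per1 (0.32 ± 0.204 in knockout, -0.09 ± 0.193 in control mice), Per2 (0.38 and 0.10), Cry1 (0.11 and -0.23) and Cry2 (0.21 and 0.04) had their lower value in control mice, where mouse 5 of the saline group was high. The REV-ERB competitors were 0.30 and 0.05 for Rora, and -0.02 and 0.08 for Rorb. None of these passed.

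Of 7 REV-ERB target genes (Nfil3 and Arntl among them), 3 lay above 0 after amphetamine in knockout and 2 in control mice, with medians of -0.05 and -0.23. Of 10 PAR bZIP targets and cycling outputs, 5 lay above 0 in knockout and 4 in control mice, with medians of 0.03 and -0.11. Averaged over genotypes, 2 of the 10 were higher and 3 lower at an unadjusted p under 0.05. Beside Per3 the higher one was Usp2, a cycling ubiquitin protease, at 0.29 ± 0.0894 (adjusted p = 0.154 in edgeR). The lower ones were the pyridoxal kinase gene Pdxk (-0.16 ± 0.0630), the cytochrome P450 reductase gene Por (-0.14 ± 0.0585) and the cell cycle inhibitor gene Cdkn1a (-0.86 ± 0.386), and none of these 4 passed over all genes. The 10 genes summed to 1130 CPM in saline control mouse 5 and 847 CPM in saline knockout mouse 1. The other saline mice ran from 655.5 to 728 CPM, and the amphetamine mice from 644.6 to 756.9 CPM. The medians and fold changes above include those 2 saline mice. Of 23 listed activity-induced genes, 16 lay above 0 after amphetamine in knockout and 19 in control mice, with medians of 0.115 and 0.30. Over all genes 48.9% lay above 0 in knockout and 48.4% in control mice. In knockout against control under saline, 3 core clock genes had an unadjusted p under 0.05, all lower: Arntl (-0.34 ± 0.113), Per1 (-0.48 ± 0.194) and Cry2 (-0.25 ± 0.109). Each had an adjusted p of 0.614 in edgeR, and saline control mouse 5 was the highest mouse of its group in all 3. Without it the values were -0.19 ± 0.0828 for Arntl, -0.19 ± 0.127 for Per1 and -0.09 ± 0.0657 for Cry2.

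Markers of the suprachiasmatic nucleus, the central clock of the hypothalamus that paces the others, were low in every library. The 6 genes summed to 23.2, 12.9, 29.1 and 14.4 CPM in amphetamine knockout and 29.0, 39.2, 39.6, 57.2 and 44.9 CPM in saline knockout mice. In control mice they summed to 18.9, 16.8, 21.1, 12.9 and 12.6 CPM after amphetamine and 13.6, 17.5, 19.3, 87.0 and 30.8 CPM after saline. None of the 6 was at 0 in any library, and 1 of 6 lay above 0 after amphetamine in each genotype. Saline control mouse 4, with the highest sum of 87.0 CPM, had 11.8 CPM of Ciart and 54.3 CPM of Bhlhe40. The part of such tissue in the clock gene values was not tested.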

How the data were processed

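The authors deposited whole-number gene counts, 1 table per mouse. Per the submitters' processing notes the tools were STAR 2.6.0c and HTSeq 0.6.1p2 on build GRCm39. Neither annotation release nor strand setting is given there. The authors' deposited comparison tables gave FPKM, log2 fold changes with a score (the Wald statistic), a signal (mean normalized count) and p-values from DESeq2 1.26.0s, per the file headers and processing notes. FPKM followed the counts of each mouse (Spearman 0.954 to 0.958).

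Differences were fitted to the counts with edgeR 4.0.16 in R 4.3.3 (TMM, filterByExpr, robust quasi-likelihood test, 4 group means over 19 libraries). Of 49592 genes, 21513 passed, and p-values were adjusted by Benjamini-Hochberg over all of them. Fold changes, CPM and SE come from this fit, and deviations used log2 CPM with a prior count of 2. Correlations used 100000 permutations within groups. The fit was tested on simulated counts. Alternatives were DESeq2 1.42.0, limma 3.58.1 (voom), median-of-ratios scaling, no filter, a replicate block, only the 2 groups compared, and leaving out libraries. The overlap of groups without saline control mouse 5, and the values of Arntl, Per1 and Cry2 without it, were added after seeing the data.

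Groups came from the sample titles. The labels do not say more of the replicates than that they are separate mice. The 9 genes and every gene list were chosen with earlier results of these data known. All 9 genes are described, and other clock genes are named by a written list. The genes most like Dbp and Bhlhe40 are the 5 outside the 9 with the highest Pearson r to each. The name of the authors' deposited comparison for knockout mice marks a further amphetamine library as left out, and that library is not among those described here.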

Additional observations from a re-analysis of the deposited data

Results flagged for a closer look

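In 3 of the 36 groups looked at (9 genes in 4 groups), 1 mouse lay farther from the rest than Dixon's test allows at its 95% level, and chance alone gives about 1 such group in 20. All 3 were saline control mouse 5. It had 32.1 CPM of Ciart, with the next saline control mouse at 11.8 CPM. It had 83.1 CPM of Bhlhe40, with the next at 55.4 CPM, and 87.3 CPM of Nr1d1, with the next at 70.4 CPM. The same mouse had the lowest Dbp of all 19, at 66.0 CPM.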

How the results depend on the processing

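In each of the 26 other settings (19 of them leaving out 1 library), the amphetamine values of the 9 genes kept their sign (693 of 693). Of the genotype and interaction values 872 of 918 did, and 0 of those passed in any setting. In control mice 2 of the 9 genes passed by DESeq2, 5 without the 5 libraries that stand apart (39 of all genes), 1 with only the 2 groups compared (75 of all genes), and 0 to 2 when 1 library was left out. In knockout mice the last range was also 0 to 2. Averaged over genotypes 4 passed by DESeq2, 7 without the 5 libraries (470 of all genes, against 32 with every library), and 0 to 3 with 1 left out. The highest count of each range came without saline control mouse 5, where Ciart (0.84) and Bhlhe40 (0.39) passed in control mice (adjusted p = 0.0241 each in edgeR). Over all genes DESeq2 made 207 calls in control and 98 in knockout mice, 463 averaged over genotypes, 106 for knockout under amphetamine, 14 for the interaction and 13 for the averaged genotype difference, where edgeR made 1, 1, 32, 0, 0 and 0. Leaving out 1 library gave 0 to 6, 0 to 29 and 3 to 269 calls in the first 3, the highest of the last 2 ranges without saline control mouse 5.

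Mice with the same number in their titles were not alike: over 27 pairs of same-numbered mice the correlation of deviations ran from -0.489 to 0.232, and the best match was the same number in 4 of 54 cases. The title numbers of amphetamine knockout mice run without a gap, whereas the numbers in their sample descriptions skip a number. For that group the check and the replicate block may join unmatched mice, so pairing is not excluded. With the replicate block 0 of the 9 genes passed in any comparison, and all genes gave 5 calls in knockout mice and 18 averaged over genotypes. The block reversed Ciart under amphetamine (0.14), Nr1d1 in the interaction (0.00934) and Bhlhe40 in the averaged genotype difference (0.00865).

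Without the 5 libraries the saline genotype values reversed to -0.18 for Dbp, 0.0263 for Tef, 0.00658 for Hlf, 0.0651 for Bhlhe40 and 0.0688 for Ciart. Ciart under amphetamine became 0.0891, Nfil3 in the interaction 0.0486, and in the averaged genotype difference Bhlhe40 became 0.0725 and Ciart 0.0789. Nr1d2 under saline, at 0.00, became -0.0039 by DESeq2, -0.0040 with its scaling, -0.0012 without the filter and -0.0059 with 2 groups. Leaving out 1 library gave these ranges in the saline genotype difference: Dbp -0.0914 to 0.147, Tef -0.151 to 0.0231, Nfil3 -0.124 to 0.0628, Nr1d2 -0.0285 to 0.0257, Bhlhe40 -0.14 to 0.0501, Bhlhe41 -0.0567 to 0.0862 and Ciart -0.54 to 0.11. Under amphetamine Ciart ran from -0.0723 to 0.0888. In the interaction Nr1d1 ran from -0.11 to 0.0378, Bhlhe40 from -0.0143 to 0.17 and Ciart from -0.11 to 0.53, and in the averaged genotype difference Bhlhe40 from -0.0527 to 0.0430 and Ciart from -0.27 to 0.0529. The cause was not tested. The lowest count of any of the 9 genes in a library was 391, for Nfil3.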
